A study of Mus musculus with 40 samples.

Results

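The comparison set the response of regenerating liver to ATRi, an inhibitor of the checkpoint kinase ATR, in older mice against the same response in younger mice, 72 h after partial hepatectomy (PH). Each of 4 livers of 12-month ATRi-treated mice, named M545, M546, M547 and M548, minus the mean of 12-month untreated mice gave the 12-month effect. The mean of 3-month ATRi-treated mice minus the mean of 3-month untreated mice gave the 3-month effect. The difference between ages is the 12-month effect minus the 3-month effect, on the log2 scale of the deposited levels. All 11119 genes of the tables entered, from 16 of the 40 samples and 4 of the 9 groups.

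The 4 groups, of 4 mice each, were 12-month mice given ATRi, 12-month mice left untreated, 3-month mice given ATRi and 3-month mice left untreated. All had undergone PH 72 h earlier, and ATRi had been given once, 24 h after PH, as 25 in a unit that the labels do not give. Strain, sex, the ATRi compound and the extraction are not given in the sources used here, and the labels of the untreated groups name no vehicle. Polyadenylated RNA was sequenced from tissue labelled as liver and as hepatocytes. Of the 16 mice, 12 also carry a 0 h label, so their liver had been sampled at PH. Other means placed beside the results are those at 0 h, at 48 h untreated and, at 12 months only, at 48 h with ATRi.

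After PH takes away a large part of the organ, resting hepatocytes in what remains enter the cell cycle, copy their DNA and divide until mass is restored. ATR, held at single-stranded DNA by its partner ATRIP, senses stalled replication forks and acts through CHK1 to hold back late origins and mitosis. The remnant also runs an early inflammatory programme, in which NF-kB and STAT3 signalling induce cytokine-response and acute phase genes, while metabolic functions of the hepatocyte are partly turned down. The title of the series names replication stress that depends on aging, and the comparison asks where ATRi acted differently at the ages.

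Of 18 hepatocyte defining markers 17 were measured, with a median difference of −0.09. All 4 livers lay above 0 in 4 of them and below in 7, and the differences ran from −1.91 ± 0.83 for G6pc to 3.13 ± 0.45 for Ahsg (fetuin-A). Albumin (Alb) lay at 15.07 to 16.04 in the livers and at 15.72 to 16.01 in the 3 means, and differed by −0.67 ± 0.32 with all 4 livers below 0. Errors here and below are standard errors of limma, which moderates the spread of the 4 livers over all genes. Markers of neutrophils and macrophages were present as well, as given below, so the samples were not hepatocytes alone. In bulk samples fewer cells of a type and less RNA per cell cannot be told apart. Listed levels cannot be compared between genes, since the scaling per gene length is not given. Only the 12-month ATRi group has single livers. The spread in every test is therefore that of these 4, and the 3 means carry no spread of their own.

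Differences with ATRi were larger in the 12-month livers than in the 3-month mean. The SD of the 12-month effect over genes was 0.56 and that of the 3-month effect 0.21, against 0.27 for the 12-month effect of ATRi at 48 h. At 3 months 6 genes lay at 1 or more (0.0540% of 11119) and 14 at −1 or less (0.126%). At 12 months 602 genes rose (5.41%) and 277 fell (2.49%) in limma's test at an adjusted p under 0.05, none with one below 0.0481. With the livers quantile-matched to the deposited mean of their group, 1186 rose and 214 fell. The difference between ages had less support. In that test 1 gene, Cyp2a4, was higher (0.00899%) and 0 were lower (0.00%), while 1717 lay higher (15.4%) and 1032 lower (9.28%) at an unadjusted p under 0.05. Quantile-matched, the unadjusted counts were 2101 and 719.

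Liver M546 lay closest to the untreated mean and decided these counts. It had 277 genes at a difference of 1 or more and 237 at −1 or less, where the other livers had 993 to 1149 and 534 to 720. Without M546, 1182 genes were called higher (10.6%) and 397 lower (3.57%). Without M545 or M548 none was called, and without M547 Cyp2a4 alone. Leaving out the liver nearest to the untreated mean tends to enlarge differences. Calls and adjusted p without M546, here and below, therefore describe that choice and are not support. The 12-month effect went from 602 and 277 genes to 2295 and 978 without M546. Both counts were 0 when any other liver was left out, or among genes at a mean level of 2 or more. They were also 0 with the livers centred by the median difference between ages. All 4 livers lay above 0 in 35.4% of genes and below 0 in 27.8%, and these shares are the background for the counts of members below. Among the 6962 genes at a mean level of 2 or more they were 27.5% and 32.8%.

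Genes with a high 12-month effect mostly lay below 0 at 3 months. Of the 64 genes with a 12-month effect of 2 or more, 57 (89.1%) lay below 0 at 3 months, with a median 3-month effect of −0.40. Of 513 genes with a 12-month effect of 1 to under 2, 82.1% lay below 0 at 3 months (median −0.14). The share was 47.1% among the 7765 genes with a 12-month effect between −0.5 and 0.5. Of the 231 genes at −1 or less at 12 months, 52.8% lay above 0 at 3 months, against 52.6% in that middle class. Over all genes the effects had a Pearson correlation of −0.22, given as a description. The points share neither samples nor controls, but genes are not independent and the 3-month effect has no error.

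**Figure D1:**
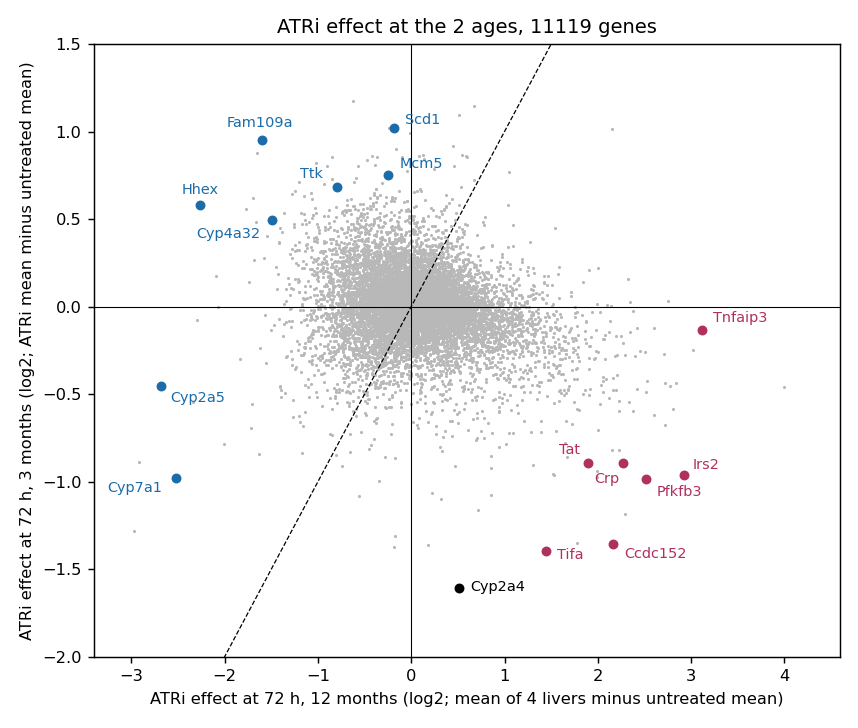
Each point is 1 of 11119 genes, with the 12-month ATRi effect at 72 h on the horizontal axis and the 3-month effect on the vertical axis, both in log2 units. On the dashed line both effects are equal, and distance to the right of it is a positive difference between ages. Irs2 and Pfkfb3 lie to the right of 2 at 12 months and below 0 at 3 months.

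Genes of stress, insulin and cytokine signalling had the highest differences. Irs2, the adaptor that carries the insulin signal in hepatocytes (chromosome 8 from 10984681 to 11008458, GRCm38), stood at 6.13, 6.04, 7.54 and 8.02 in livers M545 to M548, in that order, as in each series of 4 values below. The untreated 12-month mean was 4.01, and the 3-month means were 4.17 with ATRi and 5.13 without. All 4 livers lay above the 3 means. The effect was 2.92 at 12 months and −0.96 at 3 months. The difference was 3.88 ± 0.69, at an adjusted p of 0.0931 by limma and 0.0286 without M546. Pfkfb3, which makes the activator of phosphofructokinase, had the same shape: 5.46, 5.33, 7.26 and 6.96 in the livers against 3.74 in 12-month untreated mice, and 3.64 against 4.62 at 3 months. Its difference was 3.5 ± 0.70.

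Other genes with high differences were Arid5a (3.48), an RNA-binding protein that stabilises cytokine transcripts, Tacc2 (3.39), Mapkapk2 (3.27), the kinase downstream of p38, Btg3 (3.27), an antiproliferative factor, and Pid1 (3.22). Each had all 4 livers above 0, which the rule that named them required. Arid5a missed the threshold without M546 as well (adjusted p of 0.0592 by limma). Btg3 overlaps Cxadr, and Ccdc152 (3.52) lies antisense within Selenop, so reads of these pairs may be mixed where counting ignored strand. In Ccdc152, M546 stood at 4.08 and the other livers at 5.50 to 5.65. At 12 months and 48 h after PH, the median ATRi effect of the 12 highest genes was −0.25, and 4 of them lay above 0.

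**Figure D2:**
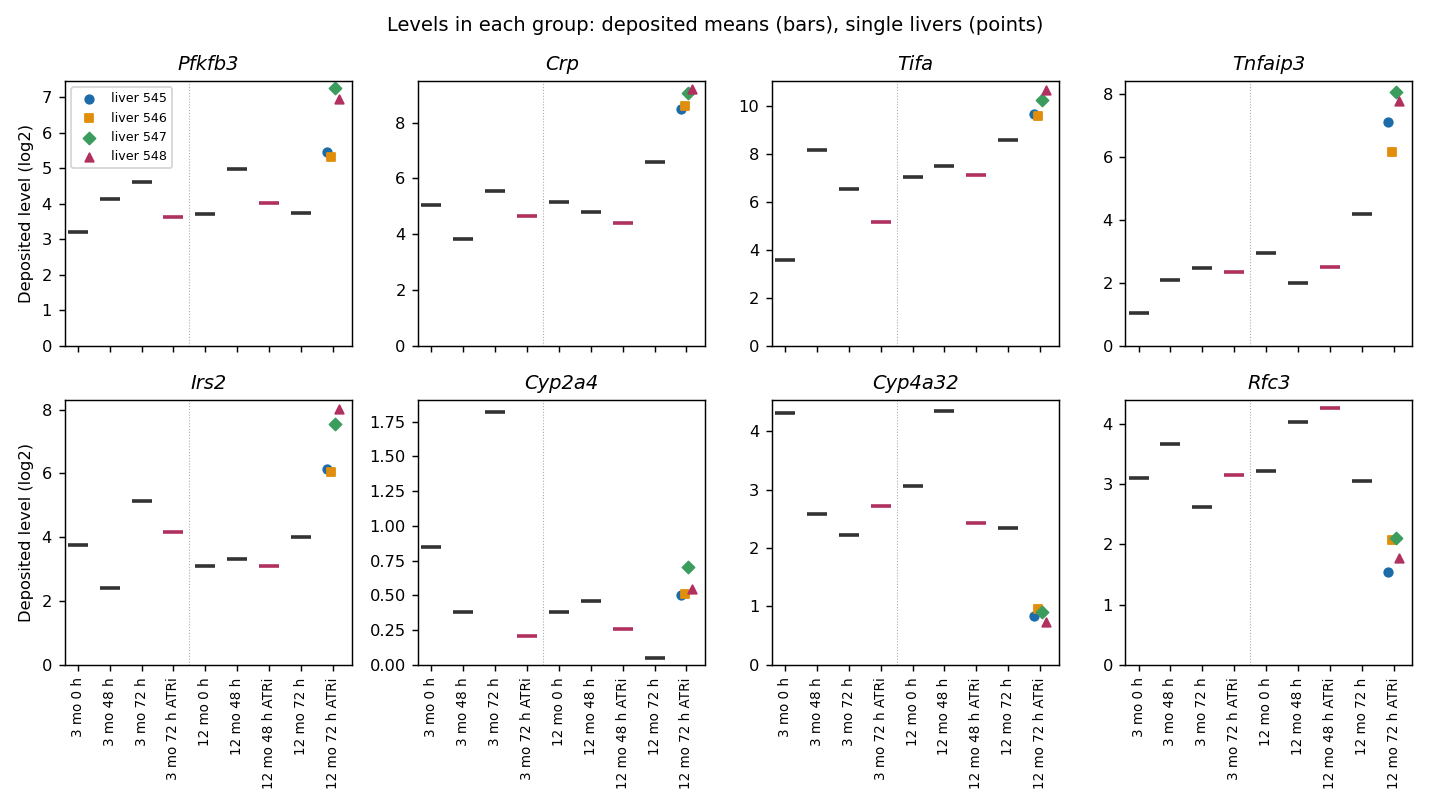
Deposited log2 levels of 8 genes by group: bars are the authors' means (dark red with ATRi), coloured points the 4 single livers. In Crp, Tifa, Tnfaip3, Irs2 and Pfkfb3 all livers lie above every mean, while Cyp4a32 and Rfc3 livers lie below every mean.

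Inflammation and chemokine genes had the highest median of the 40 lists. The median difference of the 29 members was 0.94, with 0.63, 0.18, 1.10 and 0.86 in the livers, against 0.03 over all genes (1.61 against −0.08 at a mean level of 2 or more). In 16 members all 4 livers lay above 0, and in 4 below. The 12-month effect of the list had a median of 0.63 and the 3-month effect one of −0.19. No member passed the test. Without M546 12 of 29 were called higher (41.4%, against 10.6% of all genes), and none without M545, M547 or M548. The 12 hold both Cxcl1 and Cxcl2, which may share reads, and the 29 hold Ccl3 and Ccl4, whose values are identical in every liver.

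Tnfaip3, which encodes A20, the feedback inhibitor of NF-kB, stood at 7.13, 6.17, 8.07 and 7.80 against 4.18 in untreated 12-month mice. At 3 months it was 2.35 with ATRi and 2.48 without, so nearly the whole difference of 3.25 ± 0.60 came from the 12-month side. Tifa, an adaptor upstream of NF-kB, stood at 9.68, 9.57, 10.24 and 10.68 against 8.60, and at 5.14 against 6.54 at 3 months. Here the ages took about equal parts, with effects of 1.45 and −1.40 and a difference of 2.85 ± 0.38. The adhesion molecule Icam1, another NF-kB target, differed by 2.07 ± 0.34. Limma's adjusted p was 0.096 for Tnfaip3 and 0.0931 for Tifa and Icam1, and 0.0222, 0.0238 and 0.0247 without M546.

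The chemokines Cxcl1 and Cxcl2, which draw neutrophils, split the livers. Cxcl1 stood at 4.71, 2.26, 6.93 and 6.32 against 2.29 in untreated 12-month mice, so that M546 lay at the untreated mean and the others well above it. Cxcl2 stood at 4.40, 2.03, 6.70 and 6.10 against 2.08. These related neighbours on chromosome 5 ran in parallel over the livers and the 3 means and may share reads, so they count as 1 observation here. Cxcl1 differed by 3.23 ± 1.42, at an adjusted p of 0.218 by limma, and by 4.16 at 0.0351 without M546.

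The NF-kB motif (GGGA, any base, then TTTCC) was searched on both strands in the 250 bases before each start of RefSeq promoters (GRCm38.p6). Of the 17 inflammation genes with a promoter entry 3 held it, Cxcl1, Cxcl2 and Nfkbia, while Tnfaip3, Tifa and Icam1 did not. It was held by 0.46% of the measured genes with an entry and by 0.36% of all 32851 promoters. The promoters of Cxcl1 (chr5:90891085-90891244 on the plus strand) and Cxcl2 (chr5:90903739-90903898 on the plus strand) are shown because these chemokines separated M546 from the other livers. Both hold the same 10 letters, in capitals, within 160 bases before the start. A match describes the letters only.
Cxcl1: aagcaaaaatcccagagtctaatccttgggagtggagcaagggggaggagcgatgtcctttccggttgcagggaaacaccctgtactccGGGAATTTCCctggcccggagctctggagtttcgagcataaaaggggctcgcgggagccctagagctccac
Cxcl2: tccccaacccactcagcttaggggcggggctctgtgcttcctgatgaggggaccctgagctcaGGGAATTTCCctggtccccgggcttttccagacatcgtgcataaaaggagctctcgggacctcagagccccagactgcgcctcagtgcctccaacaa

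Acute phase genes, listed together with receptors and signalling factors such as Il1r1 and Stat3, had a median difference of 0.40 over 32 members (0.14, 0.39, 0.42 and 0.84 in the livers). In 15 of them all 4 livers lay above 0, and in none below. Of the 32 differences 26 lay above 0 and 6 below. The secreted proteins Saa1 (0.03), Hpx (−0.12), Fga (−0.21) and Orm1 (−0.28) lay near or below 0. Without M545 the median of the list was 0.70, and without M546 7 members were called higher (21.9%). C-reactive protein (Crp) stood at 8.49, 8.60, 9.08 and 9.22 against 6.57 in untreated 12-month mice, and at 4.67 against 5.56 at 3 months. Its livers were close together and the difference of 3.16 ± 0.28 had an adjusted p of 0.057 by limma (0.0222 without M546). The IL-1 receptor Il1r1 stood at 7.80, 6.02, 7.54 and 8.21 against 4.88, and differed by 3.0 ± 0.66. Its antagonist Il1rn differed by 1.98 ± 0.51. The protease inhibitor A2m stood at 1.22, 2.95, 2.69 and 4.27 against 0.45, a range wider than its difference of 2.17.

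Early response and heat shock genes shared this direction, and other stress lists did not. Of 25 immediate early genes, 12 had all 4 livers above 0 and 0 below, with a median of 0.29 (0.50 at a mean level of 2 or more). The AP-1 subunit Fosl2 stood at 5.98, 5.12, 6.18 and 6.49 against 3.94, and at 3.49 against 4.19 at 3 months. It differed by 2.71 ± 0.44. Of 16 heat shock genes 8 had all 4 livers above 0 and 1 below, with a median of 0.38 (0.13 at a mean level of 2 or more). Among them were the co-chaperone Bag3 (2.10) and the constitutive chaperone Hspa8 (1.76), the latter listed low at 1.43 to 2.07 in the livers. Genes of ER chaperones and the unfolded protein response had a median of −0.08 (7 above 0 and 12 below). The median was 0.02 for amino acid response genes (9 and 9) and −0.21 for antioxidant response genes (12 and 17). Bcl2l1, which encodes the survival protein BCL-XL, stood at 5.71, 3.65, 6.04 and 6.19 against 3.05, again with M546 nearest to the untreated mean.

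Neutrophil markers lay higher alongside these lists. In 10 of 19 markers all 4 livers lay above 0 and in 1 below, with a median of 0.37 (0.59 at a mean level of 2 or more). Their log2 levels summed to 47.1 to 54.1 in the livers and 47.2 in untreated 12-month mice, against 19.3 with and 22.6 without ATRi at 3 months, and none of the 19 was under a level of 1 in every group. Macrophage markers summed to 84.1 to 95.5 in the livers against 93.8, 67.5 and 71.5 in the same order of means, and Cd14 alone was under 1 throughout. Their median difference was −0.08 (−0.03 at a mean level of 2 or more), with 0.37 in M545 and −0.25 to −0.16 in the others. The part of these cells in the inflammatory differences was not tested.

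**Figure D3:**
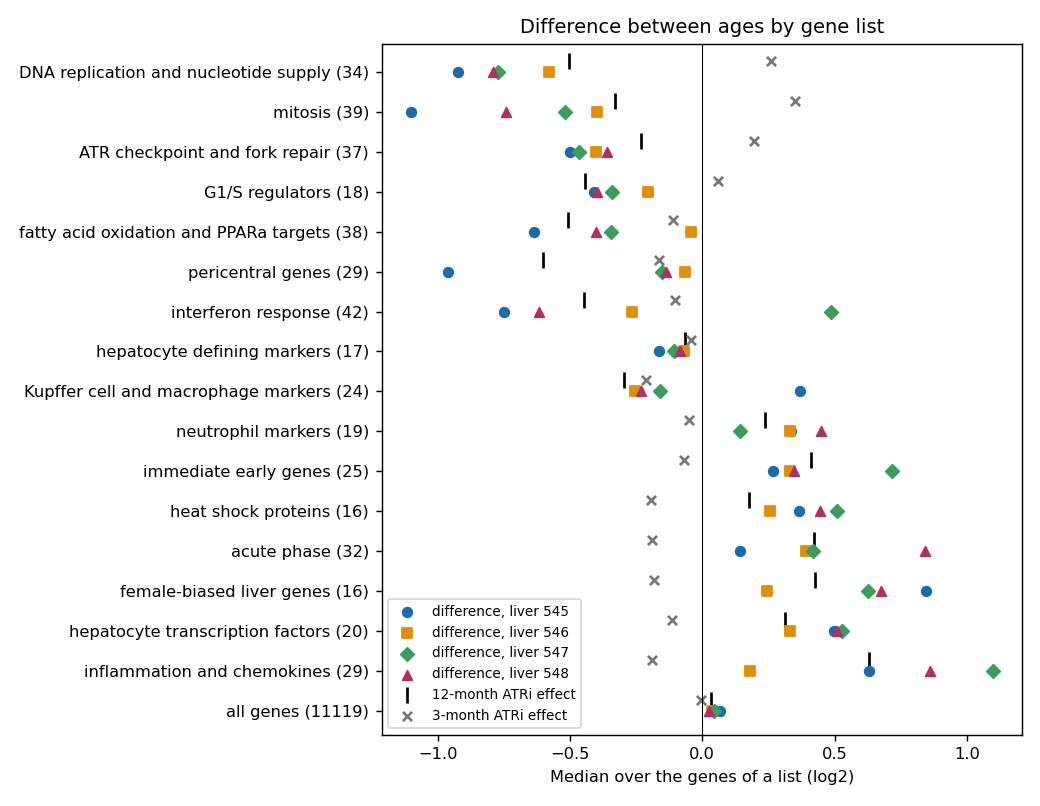
Median difference between ages (log2) in each of the 4 livers for 16 gene lists and all genes, with the number of genes in brackets; black bars are medians of the 12-month effect and grey crosses of the 3-month effect. In the replication, mitosis and ATR lists all 4 livers lie below 0 while the 3-month crosses lie above it, and in the inflammation list the order is the reverse.

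DNA replication genes lay lower after ATRi at 12 months and slightly higher at 3 months. Over the 34 members the median difference was −0.79, with −0.92, −0.58, −0.77 and −0.79 in the livers. The median 12-month effect was −0.50 (−0.30 from the deposited group mean) and the median 3-month effect 0.26, and 28 of 34 members lay above 0 at 3 months. All 4 livers lay below 0 in 30 members, against 27.8% of all genes, and above 0 in 2. None passed the test, and 7 of 34 were called lower without M546 (20.6%, against 3.57% of all genes). At 48 h the median 12-month ATRi effect on the list was 0.24, so the lower levels were seen at 72 h.

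Rfc3, a subunit of the clamp loader that seats PCNA at forks, stood at 1.54, 2.06, 2.10 and 1.76 against 3.05 in untreated 12-month mice. At 3 months it was 3.15 with ATRi and 2.61 without. All 4 livers lay below the means of every group, and the difference was −1.72 ± 0.28 (adjusted p of 0.0931 by limma, 0.0267 without M546). Rpa2, of the complex that coats single-stranded DNA, differed by −1.57 ± 0.36. The licensing factor Cdt1 stood at 2.81, 2.82, 3.02 and 2.64 against 3.83, and differed by −1.38 ± 0.25. Orc6, of the origin recognition complex, differed by −1.34. The 18 G1/S regulators had a median of −0.38 (−0.80 at a mean level of 2 or more, −0.20 from the deposited group mean). Among them the activators E2f2 and E2f1 differed by −1.60 ± 0.30 and −1.18 ± 0.23.

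Many replication genes carry E2F sites, and the letters TTTCCCGC or TTTGGCGC, on either strand, stood in the promoters of 5 of 27 members with an entry, against 1.3% of all RefSeq promoters and 2.82% of the measured genes. Mcm5 and Mcm6, subunits of the replicative helicase chosen after their values were seen, are shown as such promoters from the list. Mcm5 differed by −1.0 ± 0.29 and Mcm6 by −1.06 ± 0.23. In the 160 bases before the start (Mcm5 at chr8:75109349-75109508 on the plus strand, Mcm6 at chr1:128359706-128359865 on the minus strand) capitals mark the motif, which Mcm6 holds in 2 copies and Mcm5 on the opposite strand. At Rfc3, Cdt1, E2f1 and E2f2 these letters were not in the windows searched.
Mcm5: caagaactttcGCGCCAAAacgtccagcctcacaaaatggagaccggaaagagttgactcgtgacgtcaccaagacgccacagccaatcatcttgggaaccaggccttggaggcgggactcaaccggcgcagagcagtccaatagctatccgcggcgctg
Mcm6: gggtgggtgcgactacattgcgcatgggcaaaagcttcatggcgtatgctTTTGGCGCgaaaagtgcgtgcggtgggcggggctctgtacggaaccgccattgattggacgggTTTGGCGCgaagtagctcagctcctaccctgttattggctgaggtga

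Mitosis genes lay lower with less even livers. The median of 39 members was −0.72, with −1.10, −0.40, −0.52 and −0.74 in the livers. The 12-month effect had a median of −0.33, or −0.14 from the deposited group mean, and the 3-month effect one of 0.35. In 34 members all 4 livers lay below 0 and in 1 above, and 5 were called lower without M546 (12.8%). The spindle checkpoint kinase Ttk stood at 1.60, 2.07, 1.97 and 1.93 against 2.69, and at 2.72 against 2.04 at 3 months. It differed by −1.48 ± 0.25, and its partner in that checkpoint, Bub1b, by −1.23 ± 0.33. The kinase Plk1 scattered from 3.14 to 5.21 and differed by −1.12 ± 0.64. By contrast the proliferation marker Mki67 differed by −0.16 ± 0.27 and the mitotic kinase Cdk1 by −0.45 ± 0.36. Mki67 stood at 4.05 to 4.58 in the livers and at 4.22 to 4.66 in the 3 means, and turned to 0.11 when livers were shifted to the deposited mean of their group.

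Genes of the drug's target and its pathway lay mostly lower as well. Atr stood at 2.19, 2.29, 2.23 and 1.93 against 2.51, and at 3.10 with and 3.0 without ATRi at 3 months, a difference of −0.45 ± 0.25 with all livers below 0. Its partner Atrip differed by −0.61 ± 0.35, and Chek1, which encodes CHK1, by −0.02 ± 0.34 with livers on both sides of 0. Transcript levels of the target say nothing about inhibition of the kinase. Over 37 genes of the checkpoint and of fork repair the median was −0.42 (−0.61 at a mean level of 2 or more), with all 4 livers below 0 in 23 and above in none. Without M546, 1 of the 37 was called lower (2.70%), near the 3.57% of all genes. Rad1, of the 9-1-1 clamp that activates ATR, stood at 1.69, 2.83, 1.55 and 2.07 against 3.44, and differed by −1.85 ± 0.45. The recombination gene Xrcc3 differed by −1.41 ± 0.51. In 35 of the 37 genes the 3-month effect lay above 0.

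**Figure D4:**
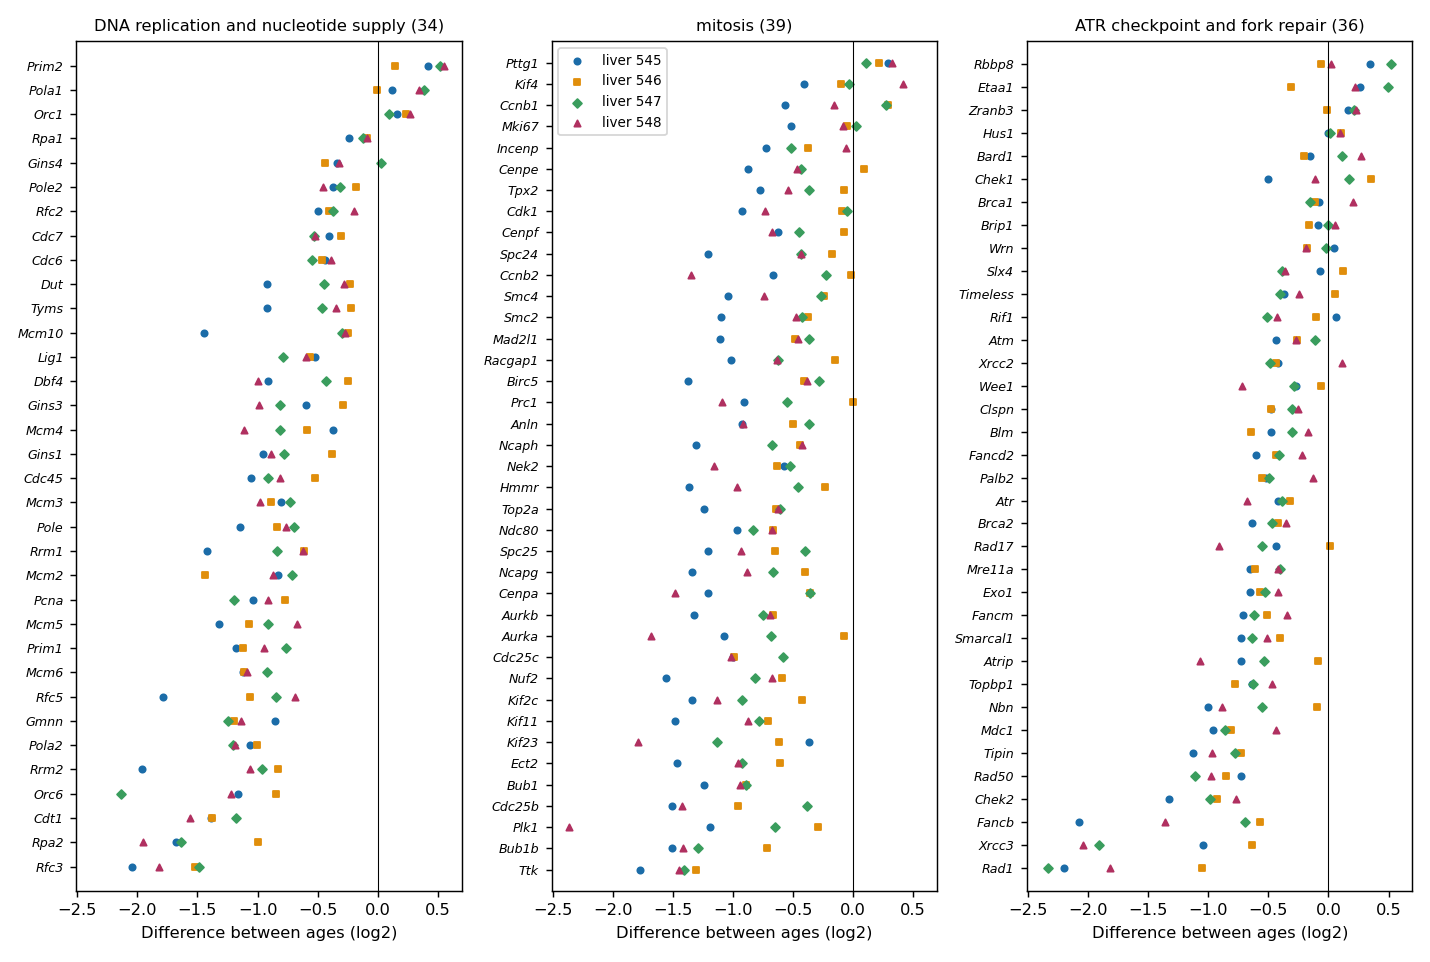
Difference between ages (log2) of the members of 3 lists, sorted by size, with 1 point per liver; 1 member of the ATR list is counted but not drawn. Most members have all 4 livers left of 0 (30 of 34, 34 of 39 and 23 of 37), and Mki67 and Cdk1 lie in the upper part of the mitosis list.

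Targets of p53 were divided. Of 32, 10 had all 4 livers above 0 and 8 below, with a median of 0.21. Among the 24 members at a mean level of 2 or more it was −0.0013. The cell cycle inhibitor Cdkn1a (p21) stood at 7.05, 8.50, 7.83 and 6.99 against 7.22, and differed by −0.27 ± 0.50. Trp53inp1, of the p53 stress response, differed by 1.63 ± 0.43 and the nuclease Aen by 1.26 ± 0.26, while the death gene Bbc3 (PUMA) differed by −1.22 ± 0.31. Limma's adjusted p of these 4 genes ran from 0.101 to 0.764.

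Regulators of hepatocyte identity and metabolism lay on both sides. Hhex, a homeobox factor of liver development, stood at 6.26, 5.96, 3.92 and 3.37 against 7.14 in untreated 12-month mice, and at 7.06 against 6.48 at 3 months. M545 and M546 lay well above M547 and M548, and the difference was −2.84 ± 0.99 (adjusted p of 0.155 by limma). Nr2f2, the nuclear receptor COUP-TFII, stood at 4.96, 5.24, 3.73 and 3.83 against 6.13, in the same order, and differed by −1.95. Tbx3, a pericentral factor under Wnt control, differed by −1.51 ± 0.62. On the other side stood Nr5a2 (2.38 ± 0.78), a nuclear receptor of bile acid synthesis, and Ahr (1.76 ± 0.22), the dioxin receptor, which stood at 6.51 to 7.01 in the livers against 5.56. Of the 20 hepatocyte transcription factors, 12 had all 4 livers above 0 and 5 below, with a median of 0.59.

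Insulin and fasting genes lay on both sides as well. Tat, a tyrosine-degrading enzyme under glucocorticoid control, stood at 9.57, 8.76, 9.71 and 10.25 against 7.68, and at 5.74 against 6.63 at 3 months, a difference of 2.78 ± 0.44. Foxo1, the factor that insulin restrains, differed by 2.15 ± 0.44, and the growth factor Igf1 by 2.16 ± 0.53. The rhythmic genes Noct and Nfil3 differed by 2.50 and 2.34. Over the 22 circadian genes the median was −0.014, with all 4 livers above 0 in 6 and below in 7. G6pc, the last step of glucose release, stood at 5.46, 8.12, 5.66 and 6.53 against 7.64 and differed by −1.91 ± 0.83. Pyruvate kinase Pklr differed by −1.57 ± 0.62. Over the 21 genes of glucose production and insulin signalling 9 had all 4 livers above 0 and 6 below.

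Genes of fatty acid oxidation lay mostly lower, and those of fatty acid synthesis on both sides. Of 38 genes in the list of PPARα targets and fatty acid oxidation, 17 had all 4 livers below 0 and 7 above, with a median of −0.38 (−0.63, −0.04, −0.34 and −0.40 in the livers). The ω-hydroxylase Cyp4a32 stood at 0.83, 0.95, 0.90 and 0.73 against 2.35, and at 2.72 against 2.23 at 3 months. It differed by −1.99 ± 0.17, with an adjusted p of 0.057 by limma and 0.0222 without M546, although the livers lay near the lowest levels of the tables. Cyp4a10 differed by −1.78 ± 0.23, with M545 (0.50) and M547 (0.51) at the lowest level listed for those livers, so the floor bounds its size and spread. Cyp4a14 differed by −2.22 ± 1.34. These P450 genes are near-identical and may share reads. At 48 h the 12-month ATRi means of Cyp4a32 and Cyp4a10 already lay below the untreated ones (−1.92 and −2.98). Of 23 fatty acid synthesis genes, 8 had all 4 livers above 0 and 8 below, with a median of −0.25. The lipogenic enzymes Fasn and Scd1 differed by −1.31 ± 0.42 and −1.20 ± 0.56. Their effects were 0.84 and 1.02 at 3 months and −0.48 and −0.18 at 12 months. From the deposited group mean the 12-month effects were −0.22 for Fasn and 0.14 for Scd1. The elongase Elovl6 differed by 2.26 ± 0.80.

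Over 24 bile acid genes the median was −0.0058, with all 4 livers above 0 in 5 and below in 3, while 2 of the genes split the livers widely. Cyp7a1, which starts the main pathway from cholesterol to bile acids, stood at 1.38, 6.46, 5.53 and 2.63 against 6.52, and the organic anion transporter Slco1a1 at 0.78, 5.53, 4.04 and 4.32 against 5.29. M545 was lowest in both, and the differences of −1.54 ± 1.62 and −1.39 ± 1.39 were no larger than their errors. Pericentral genes had a median of −0.53 over 29 members, with −0.96 in M545 and −0.15 to −0.06 in the others. Without M545 it was −0.17. Further genes with low differences were Fam109a (−2.55), Chrna4 (−2.53), the Polycomb subunit Cbx2 (−2.32), Lad1 (−2.27), Proser3 (−2.14) and the lectin Lgals4 (−2.07). Each had all 4 livers below 0, which the naming rule required. Apol9b (−2.32) stood at 3.33 in M546 and at 1.71 to 1.92 in the others. Keap1, which holds the antioxidant factor NRF2 in check, differed by −1.37 ± 0.31.

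Interferon genes scattered between the livers on both sides of 0. Over 42 members the median difference was −0.25, with −0.75, −0.26, 0.49 and −0.62 in the livers, and 4 members had all livers below 0 and 0 above. Isg15, a ubiquitin-like modifier, stood at 2.49, 3.68, 5.32 and 2.92 against 4.75 in untreated 12-month mice, and at 2.53 against 2.79 at 3 months. M547 was the highest and lay above the untreated mean. Isg15 differed by −0.89 ± 0.87, the antiviral Rsad2 by −1.26 ± 1.0, the nucleotide kinase Cmpk2 by −1.38 ± 0.81 and the nucleic acid sensor Zbp1 by −0.40 ± 0.47. Limma's adjusted p of these 4 genes ran from 0.318 to 0.61. Untreated 12-month mice exceeded untreated 3-month mice by a median of 0.99 on this list, and the same means enter the difference between ages.

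The interferon-stimulated response element was searched as GAAA, 2 bases of any kind and GAAA on either strand. It was held by 17 of 33 interferon genes with a promoter entry, by 3.42% of the measured genes with an entry and by 2.98% of all promoters. Isg15 (chr4:156200819-156200978 on the minus strand) and Rsad2 (chr12:26456453-26456612 on the minus strand) are shown as members in which M547 alone was above the untreated mean. Capitals mark the motif, with 3 overlapping or adjoining copies in Isg15 and 1 on the opposite strand in Rsad2.
Isg15: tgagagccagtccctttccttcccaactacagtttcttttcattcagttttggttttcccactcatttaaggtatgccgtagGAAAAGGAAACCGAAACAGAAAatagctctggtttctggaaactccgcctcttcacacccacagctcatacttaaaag
Rsad2: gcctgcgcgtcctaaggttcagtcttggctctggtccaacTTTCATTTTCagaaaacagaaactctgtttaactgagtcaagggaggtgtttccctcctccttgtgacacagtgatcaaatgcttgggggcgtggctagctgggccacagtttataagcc

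Cyp2a4, a steroid hydroxylase that is more abundant in female than male mouse liver, was the single gene past the threshold. It lies on chromosome 7 from 26307169 to 26315088 (GRCm38, GENCODE M21, plus strand). The livers stood at 0.50, 0.51, 0.70 and 0.55 and untreated 12-month mice at 0.05, while 3-month mice stood at 0.21 with ATRi and 1.82 without. The difference was 2.12 ± 0.12, at an adjusted p of 0.0105 by limma, and all 4 livers lay above 0. It rested mostly on the 3-month side (effect −1.61). The lowest level listed anywhere was 0.27 to 0.55 in the livers and 0.05 to 0.11 in the means, so the 12-month effect of 0.52 is about the gap between these floors. M545 and M548 stood at the lowest level listed for those livers, so the floor also bounds the spread behind the error and the p. The 3-month means have no spread of their own. The near-identical neighbour Cyp2a5 differed in the opposite direction (−2.23 ± 0.48, livers at 1.49, 2.05, 1.25 and 0.55 against 4.01), and reads may be shared. The call was lost in 4 of 11 alternatives, among them without M545 and without M548. Of 16 female-biased genes, 11 had all 4 livers above 0 and none below (median 0.55), among them the prolactin receptor Prlr (2.21 ± 0.53).

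The difference followed the length of the gene. Among 6551 genes with an annotated length and a mean level of 2 or more, its median was −0.33 up to 5 kb (271 genes), −0.10 from above 20 to 50 kb (2357 genes), 0.66 from above 100 to 200 kb (416 genes) and 1.06 above 200 kb (104 genes). All 4 livers lay above 0 in 87.5% of the genes above 200 kb and in 8.12% of those up to 5 kb. Above 200 kb the livers had medians of 1.27, 0.52, 1.21 and 1.19. The 3-month effect there was −0.16 and the 12-month effect at 48 h −0.02. Across genes the Spearman correlation of gene length was 0.46 with the difference, 0.50 with the 12-month effect and −0.08 with the 3-month effect, given as a description over genes that share the same 4 livers and means. Transcript GC content had −0.12 with the difference. Among the genes named above as high, Tnfaip3 (14.7 kb) is short, and Pid1 (328 kb) and Tacc2 (187 kb) are long. The median length was 58.4 kb for the hepatocyte transcription factors and 5.5 kb for the inflammation list, against 26.7 kb over all genes. With the trend removed, the list medians were −0.67 for replication, −0.69 for mitosis and 1.05 for inflammation. Of the 40 list medians, 5 took the other sign. No cause of the gradient was tested.

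**Figure D5:**
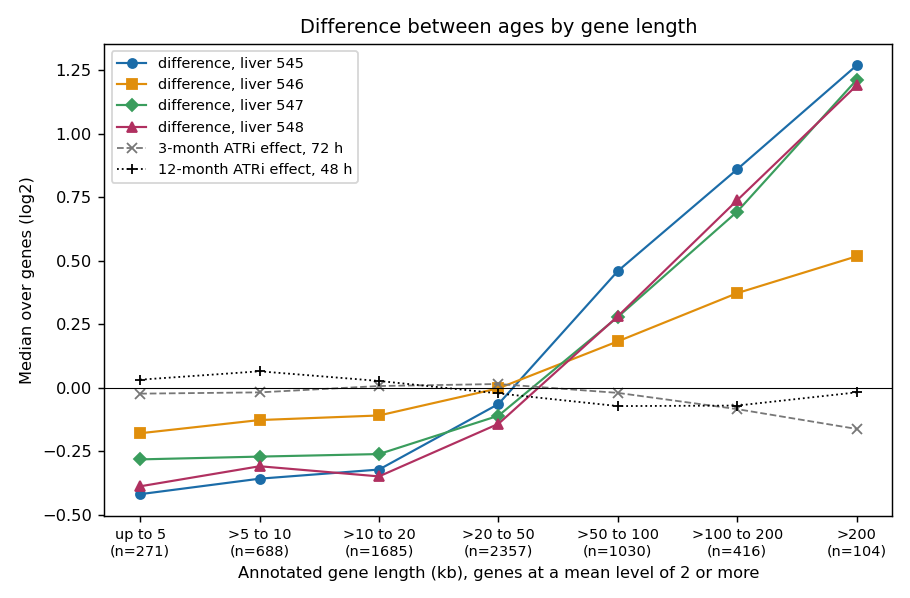
Median difference between ages (log2) in each of the 4 livers over 7 classes of annotated gene length (kb), with the 3-month effect at 72 h and the 12-month effect at 48 h for the same genes. The livers climb from −0.42 to −0.18 in the shortest class to 0.52 to 1.27 in the longest, M546 least, and the other lines stay between −0.16 and 0.07.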

How the data were processed

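RNA sequencing levels of 16 mouse livers were used. The authors deposited them as log2 of a value called sigma, which the sources do not define. Build GRCm38/mm10 is named in the submitters' processing notes. The aligner, counting, annotation, strand, scaling and filters are not given in the sources used here. No counts were used, so read depth is unknown. For 3 of the 4 groups the deposited tables hold 1 mean of 4 mice, averaged in a way not stated. For 12-month ATRi mice they hold the mean and the 4 livers. That mean differed from the average of the 4 log2 levels by a median offset of 0.09, and lay outside their range in 19.2% of genes. At a mean level of 2 or more the median offset was 0.15.

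The difference between ages was fitted with limma 3.58.1 (R 4.3.3), livers weighted 1 and each mean 4, with trend and robust empirical Bayes, two-sided, Benjamini-Hochberg over all 11119 genes. The fit has 3 residual degrees of freedom, all from the livers, whose spread stands in for that of the other groups. The test was checked on simulated data. Positions and lengths came from GENCODE M21 (10578 genes, 95.1%, matched by symbol or older symbol). Another 507 entries join overlapping genes.

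Members, the 40 gene lists and the tests were chosen with earlier results of these data known. Lists have no test and are described by counts and medians. Named genes were the 12 highest and 12 lowest differences (called genes, then by size with all 4 livers on the same side, passing over predicted and joined entries), up to 4 members of each list by size, and Atr, Atrip, Chek1, Cdkn1a, Mki67, Cdk1, Zbp1, Isg15 and Alb. Errors are standard errors of limma. Alternatives were scaling, centring, moderation, weights, a level filter, all 9 groups and leaving out each liver. Removal of the length trend, the leave-out and level variants of list medians, and further settings for the 12-month effect were added after seeing the data. Some genes that the rule names are not reported here.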

Additional observations from a re-analysis of the deposited data

Results flagged for a closer look

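Cyp2a4 was the single gene for which the test of the difference itself passed the threshold, at 2.12 on the log2 scale. Its levels are near the lowest of the tables, as given above.

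A single liver stood apart from the other 3 in the levels of 2 of the 80 genes with printed values and in 5 of the 40 list medians, by Dixon's test at the 95% level. Chance alone gives about 1 in 20. Ccdc152 stood at 4.08 in M546 and at 5.50 to 5.65 in the others. Apol9b stood at 3.33 in M546 and at 1.71 to 1.92 in the others.

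M546 also had the lowest median difference of the hepatocyte transcription factors (0.33, others 0.50 to 0.53). M545 stood apart in 4 lists. Its median was −0.96 for pericentral genes (others −0.15 to −0.06), −0.36 for sinusoidal endothelial markers (others 0.11 to 0.19), 0.14 for stellate cell and fibroblast markers (others −0.12 to −0.09) and 0.37 for Kupffer cell and macrophage markers (others −0.25 to −0.16).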

How the results depend on the processing

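No paired analysis was possible because the 4 groups hold different mice and 3 of them are given only as means. Genes called higher in the difference between ages numbered 1, and 0 without an intensity trend and robust moderation together, with each mean weighted 1 or at a mean level of 2 or more, and 0 to 1182 when each liver was left out in turn. Genes called lower numbered 0, 1 with livers shifted to the deposited mean, and 0 to 397 over the livers left out. At an unadjusted p under 0.05, 247 were higher and 178 lower with each mean weighted 1, and 767 were higher at a mean level of 2 or more. For the 12-month effect, 602 were higher, with 1052 after the shift and 1186 after quantile matching, and 0 to 2295 over the livers left out. The 277 lower became 0 to 978 over the livers left out. Both counts were 0 after centring, without the intensity trend and robust moderation, with each mean weighted 1, at a mean level of 2 or more and with all 9 groups. The cause was not tested.

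The ATR list's median of −0.42 was −0.61 at a mean level of 2 or more and −0.55 with the length trend removed. The inflammation median of 0.94 was 1.61 at a mean level of 2 or more, and the acute phase median ran from 0.28 to 0.70 over the livers left out. Mki67 turned to 0.11 after the shift and to 0.0215 after quantile matching. Chek1 (−0.02) turned to 0.21 and 0.15 there, to 0.14 with the length trend removed, and ran from −0.15 to 0.14 over the livers left out, above 0 without M545 (0.14) and without M548 (0.0073). No other of the 80 genes turned, and without M546 54 more of them passed the threshold. With the deposited mean in place of the livers, 13 of the 40 list medians took the other sign. No T or NK cell marker had a mean level of 2 or more, so that median could not be taken. Unknown depth and levels near the floor limit low genes. At a mean level up to 1, 62.4% of genes had all 4 livers above 0, with a median difference of 0.25. With the deposited mean in place of the livers that median was 0.125. The lowest level listed was 0.27 to 0.55 in the livers and 0.27 in the deposited mean of their group. It was 0.05 to 0.11 in the means of the other groups compared. The part of these floors in the share of 62.4% was not tested.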
